A study of Homo sapiens with 6 samples.

Results

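ABC transporters are membrane proteins that use ATP to move lipids, bile salts, drugs, peptides and metal complexes across membranes. Their transcripts were compared between HepG2 cells that received a hairpin against TCTP and cells that received a control hairpin. The members were the protein-coding genes whose symbol is ABCA to ABCG followed by a number. They came to 40 of the 26389 genes in the count table, with 10 in subfamily A, 8 in B, 10 in C, 3 in D, 1 in E, 3 in F and 5 in G. After a filter on low counts, 33 were tested. The other 7 (ABCA6, ABCA8, ABCA12, ABCA13, ABCC12, ABCG1 and ABCG4) had between 1 and 4 reads each over all 6 libraries, too few to compare. ABCB11, the bile salt export pump, and ABCD2 were not analysed here.

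HepG2 is a human liver cancer cell line. The 3 control libraries (shCtrl) came from cells given a plasmid with a control short hairpin RNA, and the 3 knockdown libraries (shTCTP) from cells given one against TCTP, the protein encoded by TPT1. A lipid reagent delivered the plasmids to both groups, and the labels give 48 h as the harvest time for quantitative PCR only. Polyadenylated RNA was made into directional libraries. The labels do not say whether a group's libraries are from separate cultures, how many hairpin sequences were used or what share of cells took up the plasmid. P-values therefore measure the spread among these samples only, and that spread may be technical. In bulk RNA, fewer cells that express a gene and less of its RNA per cell cannot be told apart.

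An ABC transporter joins membrane-spanning segments, which form the path for the substrate, to nucleotide-binding domains, which bind and hydrolyse ATP. In hepatocytes, members on the bile canaliculus export bile salts, phospholipid, sterols and conjugated drugs, and members on the blood side return conjugates to plasma. Others act in mitochondria, peroxisomes and lysosomes, while the E and F proteins have no membrane-spanning segments and act in ribosome recycling and translation.

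Sequences are shown at 2 loci, that of the only member that passed the test and that of an opposed gene pair whose products work as a single transporter. ABCA7 (ENSG00000064687.12) lies on the plus strand of GRCh38 chromosome 19, from 1040101 to 1065572 in GENCODE release 29. The 244 bases before its start, chr19:1039857-1040100 on the plus strand, were taken from RefSeq (GRCh38.p14). Capitals mark a GC box (GGGCGG, bases 26 to 31) and a CCAAT motif (bases 196 to 200), both on the strand shown.
ABCA7 upstream: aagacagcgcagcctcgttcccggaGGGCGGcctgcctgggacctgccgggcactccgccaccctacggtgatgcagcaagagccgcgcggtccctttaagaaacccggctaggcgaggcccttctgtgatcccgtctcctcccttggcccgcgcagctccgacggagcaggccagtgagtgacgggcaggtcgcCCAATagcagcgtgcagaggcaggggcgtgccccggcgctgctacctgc
ABCG5 (minus strand, chromosome 2, 43812472 to 43838865) and ABCG8 (plus strand, 43831942 to 43882987) are annotated with an overlap of 6924 bases, since some ABCG8 transcripts begin inside ABCG5. The stretch chr2:43838866-43838963 lies between the start of ABCG5 and the next annotated ABCG8 start, and is given on the plus strand.
ABCG5 to ABCG8 gap: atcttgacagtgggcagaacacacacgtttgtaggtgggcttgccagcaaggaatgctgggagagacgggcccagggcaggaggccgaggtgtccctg
Both strands were searched for the GC box GGGCGG, the CCAAT motif, the TATA box TATAAA, the AP-1 site TGANTCA, the cyclic AMP element TGACGTCA and the E-box CACGTG, and the matches found did not overlap each other. Of 35116 RefSeq promoter windows cut to 244 bases, 42.0% held GGGCGG and 31.6% held CCAAT, so both matches upstream of ABCA7 are of common kinds. The 98 bases between ABCG5 and ABCG8 held none of the 6 motifs. A match is a run of letters, and says nothing about binding. Of the 40 members, 31 had a RefSeq promoter entry.

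The libraries held 25427614 to 30486409 reads on genes, of which 20945 to 24681 (0.0687% to 0.0944%) fell on ABC transporters. The third knockdown library (shTCTP 3) was the shallowest and had the highest share of ABC reads. That share is of total reads, before the TMM scaling described below, and shTCTP 3 also had the highest TMM factor (1.17). The library stood apart, with a mean correlation of 0.977 with the others against at least 0.986 for each of the rest. TPT1 itself gave 2575, 2249 and 2290 counts scaled to library size (CPM) in control and 2032, 1807 and 1559 CPM in knockdown, with no overlap. Its estimated level was 75.9% of control (log2 fold change -0.40, SE 0.17), which missed the threshold in the edgeR quasi-likelihood test (adjusted p = 0.396) and gave p = 0.1 in an exact two-sided permutation test, the smallest that 3 against 3 allow. All 10 hepatic markers were found and none passed the test, but their summed level was 19529 to 20351 CPM in control and 15069 to 18053 CPM in knockdown. The summed level of immune markers was at most 12.3 CPM, of endothelial markers at most 0.659 CPM and of mesenchymal markers at most 15.5 CPM in any library. CPM is scaled here by edgeR's TMM factors, and FPKM, a level per length that the authors deposited, is used to compare levels between genes.

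In control cells the family was carried by a few members. ABCF1, a translation factor that binds the initiation factor eIF2, had the highest level at 36.2 ± 4.91 FPKM (SD, n = 3). ABCB6, a porphyrin transporter, followed at 26.5 ± 0.624 FPKM, ABCF3 at 20.2 ± 1.50 FPKM and ABCF2 at 17.5 ± 0.644 FPKM. These 4 made up 56.2% of the summed FPKM of the family. The lowest control library of each lay above the highest of the member next in order. Further down, some neighbours could not be separated, such as ABCC2 and ABCC1. ABCC2, the canalicular exporter of conjugated bilirubin, stood at 6.93 ± 0.756 FPKM, and ABCC1, a basolateral exporter of glutathione conjugates, at 6.82 ± 1.53 FPKM. In all, 4 members reached 10 FPKM, 19 lay from 1 to below 10, 6 from 0.1 to below 1 and 10 below 0.1, while ABCA13 had no FPKM value.

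The subfamilies were far from equal. Subfamily F, with 3 genes, held 41.3% of the family's FPKM in control, subfamily B 23.9%, C 16.3%, D 11.4%, A 2.66%, G 2.54% and E 1.77%. The ABC family as a whole summed to 179 ± 11.8 FPKM in control and 188 ± 29.6 FPKM in knockdown. The highest knockdown sum, 221 FPKM, was that of shTCTP 3. FPKM is scaled to total reads and not by TMM, whose factor was 1.17 for that library and 0.919 to 1.02 for the others. Scaling by TMM would lower the shTCTP 3 sum beside the rest, so these sums do not show a rise in knockdown.

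**Figure D1:**
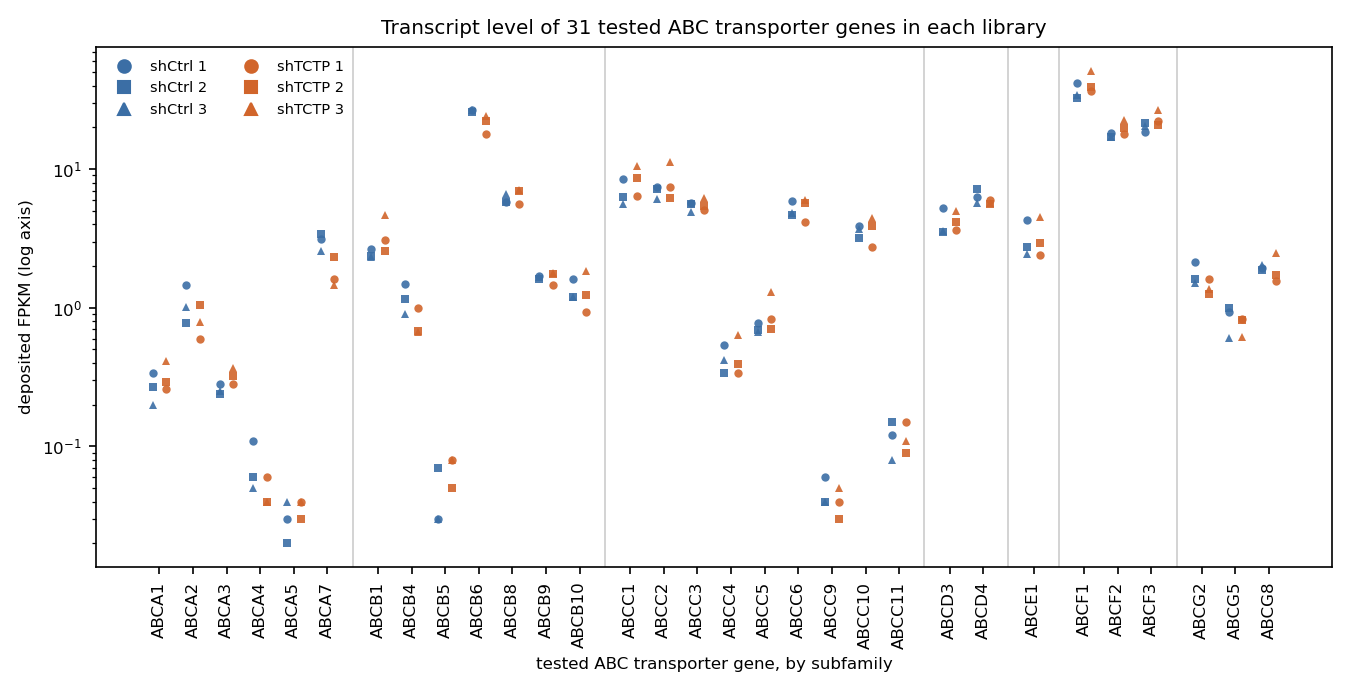
Deposited FPKM on a log axis of 31 of the 33 tested ABC transporters, arranged by subfamily, with a point for each of the 6 libraries. ABCF1, ABCB6, ABCF3 and ABCF2 stand highest, above 10 FPKM in every library, and ABCA5, ABCB5 and ABCC9 lie below 0.1 FPKM.

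Of the 33 tested members, 1 passed an adjusted p under 0.05 (3.03%), the sterol and phospholipid transporter ABCA7, which was lower in knockdown. Over all 14197 tested genes 1.41% passed, with 0.148% (21 genes) in the lower direction and 1.26% in the higher. The lower count was not stable: it ran from 7 to 71 under other settings and from 3 (without shCtrl 2) to 43 (without shTCTP 3) with a library left out. At an unadjusted p under 0.05, which is no call, 6 members stood lower (18.2%, against 4.27% of all tested genes) and none higher (against 6.80%). ABCA7, ABCA2, ABCB4, ABCB6 and ABCG2 were among the 6. The groups did not overlap for 5 members (15.2%), close to the 17.1% of all tested genes. Of these, 3 lay lower in every knockdown library (against 7.30% of all tested genes), ABCA7 and ABCB6 among them, and ABCA3 and ABCF2 lay higher (against 9.83%). The fitted log2 fold change was negative for 21 members (63.6%), against 50.4% of all tested genes, with a median of -0.07 against -0.0023. These shares describe the family and were given no test. The separations of ABCA7 and ABCB6 were also seen in the deposited FPKM, which is scaled to total reads and not by TMM, while ABCF2 overlapped there and ABCA3 met at 0.28 FPKM. The 95% interval of 26 members lay within a change of 1 log2 unit either way, and the standard errors ran from 0.12 to 0.49 with a median of 0.19.

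**Figure D2:**
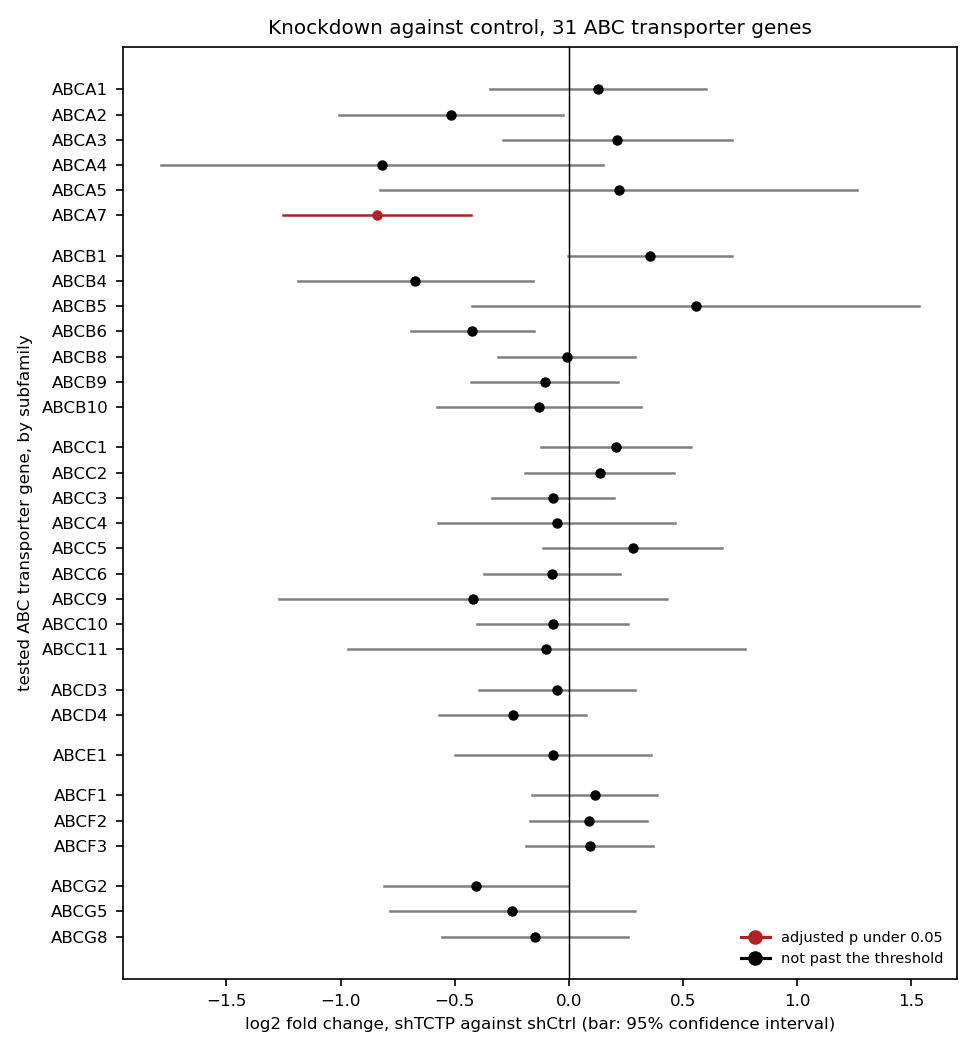
Log2 fold change (knockdown over control) of 31 of the 33 tested members by subfamily, as points with 95% intervals from the edgeR fit. ABCA7 lies at -0.84 and is the only member marked as past the threshold, while most intervals cross 0.

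ABCA7 opens the account of subfamily A, the lipid carriers. It gave 22.3, 25.7 and 20.1 CPM in control and 12.1, 16.9 and 9.08 CPM in knockdown. The groups did not overlap, and shTCTP 3 was the lowest library. The mean fell from 22.7 ± 2.82 to 12.7 ± 3.91 CPM (SD, n = 3), an estimated 55.9% of control with a 95% interval of 42.0% to 74.4%. The log2 fold change was -0.84 (SE 0.19, edgeR adjusted p = 0.0417). ABCA7 passed by a narrow margin, ranking 177th by p. With a library left out the fit has fewer samples. The edgeR log2 fold change and adjusted p were -0.85 and 0.178 without shCtrl 1 and -0.74 and 0.244 without shCtrl 2, neither a call. They were -0.92 and 0.0658 without shCtrl 3 and -0.81 and 0.0775 without shTCTP 1, again short of the threshold. Without shTCTP 3 its log2 fold change was -0.64, with an adjusted p of 0.0222.

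**Figure D3:**
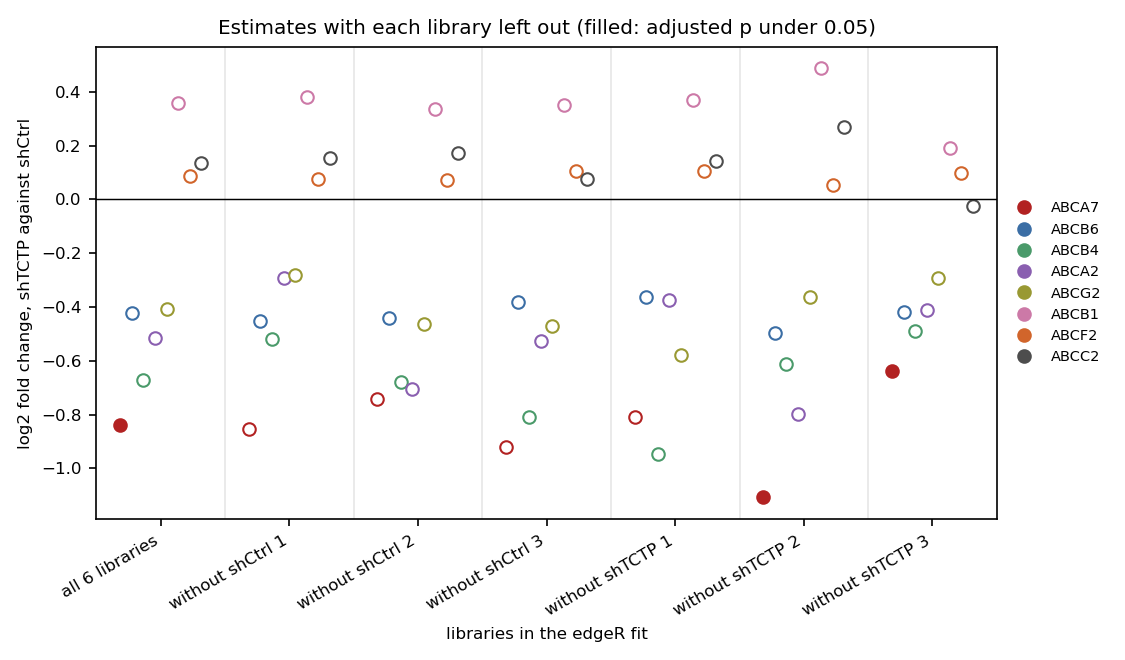
Log2 fold change with each library left out in turn, for 8 members, with filled points where the edgeR adjusted p is under 0.05. ABCA7 ranges from -1.11 without shTCTP 2 to -0.64 without shTCTP 3 and is filled in those fits and with all 6 libraries.

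The other members of subfamily A did not pass. ABCA2, an endolysosomal lipid transporter (chromosome 9, 137007227 to 137028922), gave 12.6, 7.11 and 9.73 CPM in control and 5.45, 9.22 and 5.94 CPM in knockdown, and the groups overlapped. Its log2 fold change was -0.52 (SE 0.23, edgeR adjusted p = 0.416). ABCA1, which passes cholesterol to apolipoprotein A-I, gave 3.87, 3.36 and 2.62 CPM against 3.22, 3.40 and 4.15 CPM. Its groups overlapped too, and it stood at 0.13 on the log2 scale (SE 0.22, edgeR adjusted p = 0.888). ABCA3, which loads surfactant lipid into lamellar bodies of the lung, stood at 1.77 to 1.97 CPM in control and 2.06 to 2.25 CPM in knockdown. These ranges did not overlap, yet the edgeR adjusted p was 0.807 at a log2 fold change of 0.21. ABCA4 and ABCA5 stood at -0.82 (SE 0.46) and 0.22 (SE 0.49) on 5 to 25 reads per library. The subfamily summed to 4.75 ± 0.625 FPKM in control and 3.34 ± 0.618 FPKM in knockdown, with 3 of 6 tested members at negative fold changes. ABCA7 alone made up 3.02 FPKM of the control mean and 1.79 FPKM of the knockdown mean.

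In subfamily B, 6 of 8 members had negative fold changes and none passed. ABCB6 (chromosome 2, 219209766 to 219219017, minus strand) gave 83.1, 84.8 and 91.8 CPM in control and 58.9, 69.9 and 65.1 CPM in knockdown. There was no overlap, and the estimate was 74.6% of control (log2 fold change -0.42, SE 0.13, edgeR adjusted p = 0.143). The mitochondrial members ABCB8 and ABCB10 overlapped, at log2 fold changes of -0.01 and -0.13. ABCB9, a lysosomal peptide transporter, stood at -0.11, but it overlaps genes on the opposite strand with up to 6786 reads, and whether counting used strand is unknown. ABCB5 stood at 0.56 (SE 0.46) on 7 to 19 reads per library.

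ABCB4 and ABCB1 are neighbours on chromosome 7, 23197 bases apart and both on the minus strand. ABCB4, the canalicular floppase that supplies phosphatidylcholine to bile, gave 6.13, 5.06 and 4.09 CPM in control and 4.32, 2.89 and 2.40 CPM in knockdown. The groups overlapped, and the log2 fold change was -0.67 (SE 0.24, edgeR adjusted p = 0.261). ABCB1, the drug efflux pump P-glycoprotein, gave 13.5, 12.7 and 13.0 CPM against 16.4, 13.3 and 20.6 CPM. Only shCtrl 1 exceeded any knockdown library, and its log2 fold change was 0.36 (SE 0.17, 95% interval 0.00 to 0.72, edgeR adjusted p = 0.453). The highest ABCB1 value was that of shTCTP 3, and without that library the log2 fold change was 0.19. The difference between these neighbours was not tested.

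**Figure D4:**
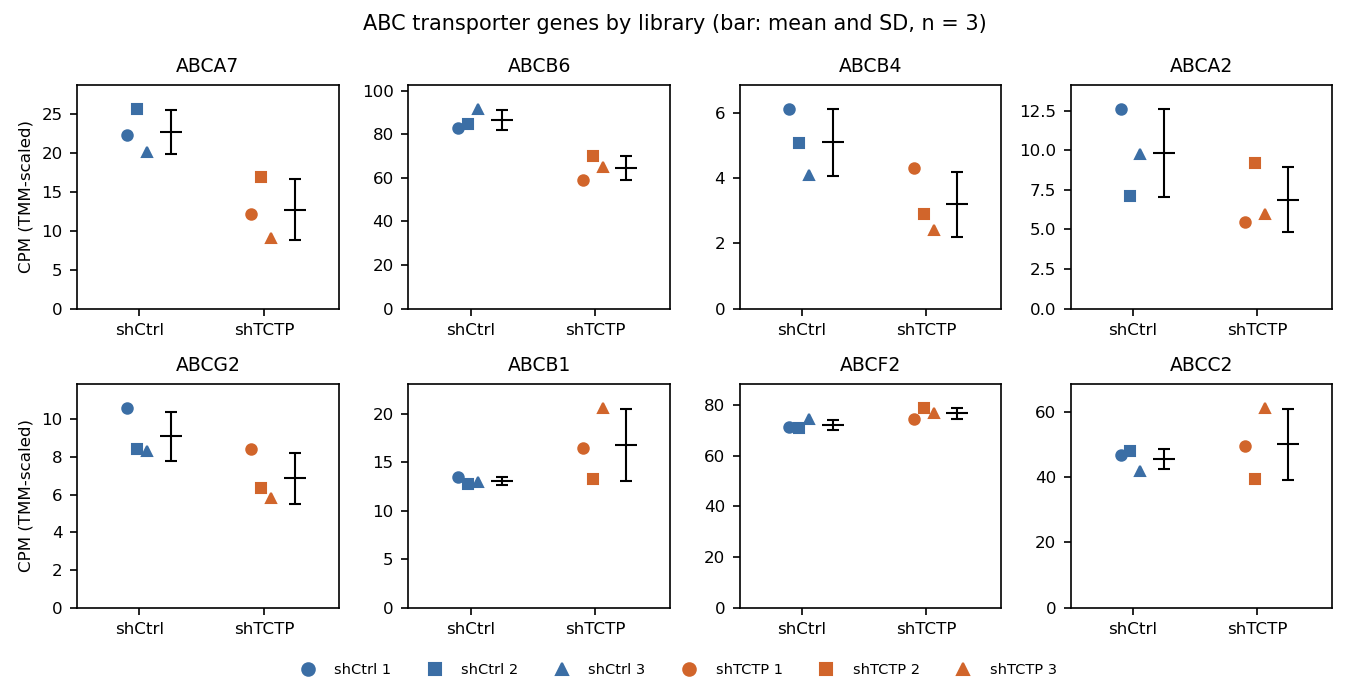
CPM of 8 members in each of the 6 libraries, with a panel for each gene and bars for the mean and SD of a group (n = 3). ABCA7 and ABCB6 show no overlap between the groups, ABCF2 barely separates, and ABCB4, ABCA2, ABCG2, ABCB1 and ABCC2 do overlap.

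Subfamily C holds the multidrug resistance proteins, and none of its 9 tested members passed. ABCC2 gave 46.7, 48.0 and 41.9 CPM in control and 49.5, 39.4 and 61.2 CPM in knockdown. The knockdown libraries lay on both sides of the controls, with the log2 change at 0.14 (SE 0.15, edgeR adjusted p = 0.812). ABCC1 gave 57.7, 45.6 and 41.8 CPM against 45.6, 59.6 and 62.1 CPM, with a log2 fold change of 0.20 (SE 0.16). ABCC3, a basolateral exporter of glucuronides, gave 37.6, 38.9 and 35.8 CPM against 35.3, 36.5 and 35.4 CPM. The ranges overlapped, at -0.07 (SE 0.13). ABCC4, which exports cyclic nucleotides and bile salts at the basolateral side, had a log2 fold change of -0.05 on 2.30 to 3.58 CPM. ABCC6, which mediates ATP release from liver and is mutated in pseudoxanthoma elasticum, had overlapping groups and stood at -0.07 on the log2 scale (SE 0.14). Its value is uncertain, since the near-identical pseudogenes ABCC6P1 (466 to 581 reads) and ABCC6P2 (160 to 228 reads) were counted in the same libraries. Of the rest, ABCC5, an exporter of cyclic nucleotides, stood at 0.28 with its highest value in shTCTP 3, and ABCC10 at -0.07. ABCC9, a subunit of ATP-sensitive potassium channels, stood at -0.42 on 11 to 22 reads per library. ABCC11, which overlaps LONP2 on the opposite strand, stood at -0.10.

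None of the peroxisomal, lysosomal and ribosomal members of subfamilies D and E passed. ABCD3, which imports branched-chain acyl-CoA and bile acid intermediates into peroxisomes, gave 20.0, 14.2 and 15.2 CPM in control and 14.8, 16.3 and 16.6 CPM in knockdown. All its knockdown libraries lay within the control range, at -0.05 on the log2 scale (SE 0.16). ABCD4, a lysosomal protein of vitamin B12 transport, stood at -0.25 (SE 0.15, edgeR adjusted p = 0.592). ABCE1, which splits ribosomes after termination, gave 17.3, 11.8 and 10.9 CPM against 10.2, 12.0 and 15.9 CPM. These overlapped throughout, at -0.07 (SE 0.20).

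The 3 members of subfamily F all had positive fold changes. ABCF1 gave 149, 124 and 136 CPM in control and 140, 143 and 160 CPM in knockdown, which put the log2 change at 0.11 (SE 0.13, edgeR adjusted p = 0.813). ABCF2 gave 71.2, 70.9 and 74.5 CPM against 74.5, 78.8 and 76.6 CPM, ranges that separate only beyond the digits shown. Its log2 fold change was 0.09 (SE 0.12, edgeR adjusted p = 0.848). ABCF3 also stood at 0.09 (SE 0.13) with overlapping groups. The subfamily summed to 73.9 ± 4.12 FPKM in control and 85.7 ± 12.8 FPKM in knockdown. These sums overlapped between the groups, and the highest, 100 FPKM, was that of shTCTP 3. They are not scaled by TMM, and shTCTP 3 had the highest TMM factor. Both the overlap and the height of that sum depend on this scaling.

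In subfamily G all 3 tested members had negative fold changes, and none passed. ABCG2, the breast cancer resistance protein and a urate exporter (chromosome 4, 88090264 to 88231322), gave 10.6, 8.39 and 8.29 CPM in control and 8.39, 6.36 and 5.84 CPM in knockdown. The groups overlapped at their edge, and the log2 fold change was -0.41 (SE 0.19, edgeR adjusted p = 0.441). ABCG5 and ABCG8, the divergent pair shown above, form the heterodimer that secretes cholesterol and plant sterols into bile. ABCG5 gave 3.18, 3.61 and 2.30 CPM against 2.98, 2.83 and 1.86 CPM, at a log2 fold change of -0.25 (edgeR adjusted p = 0.784). ABCG8 gave 5.28, 5.41 and 6.14 CPM against 4.49, 4.78 and 5.91 CPM, at -0.15 (SE 0.19, edgeR adjusted p = 0.839). Both overlapped. ABCG1, the sterol exporter of macrophages, had 1 read in all and was not tested.

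The transcripts of the tested members were long beside the rest. Their median length, worked out from counts over FPKM, was 5211 bases against 3337 for all tested genes, and their median GC content was 51.6% against 49.6%. Across the members, which are not independent replicates, Spearman's rho of the log2 fold change was -0.16 with GC content and 0.17 with length. Over all tested genes the values were -0.09 and 0.14. ABCA7 passed after correction for length (log2 fold change -0.88, edgeR adjusted p = 0.0279) and for GC content (-0.81, edgeR adjusted p = 0.0283).

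Of 120 genes in 9 lists of partners and regulators, 119 were in the file, 111 were tested and none passed in edgeR. At an unadjusted p under 0.05 there were 5 (4.50%), against 11.1% of all tested genes, and the smallest adjusted p was 0.19. Among 20 partners of cholesterol efflux and HDL, all tested, LCAT, the enzyme that esterifies HDL cholesterol, stood at 0.43 (edgeR adjusted p = 0.19). APOM, an HDL apolipoprotein, stood at -0.51 (edgeR adjusted p = 0.239). Of 12 tested genes in a list of hepatic carriers and bile acid enzymes, SLCO2B1 stood at -0.44 (edgeR adjusted p = 0.389) and SLC47A1 at -0.27. The 18 heme and iron-sulfur genes, partners of the mitochondrial members, had a median log2 fold change of -0.08, with PPOX at -0.32 and CPOX at -0.24. The 15 peroxisomal partners of subfamily D had a median of -0.10, with SLC27A2 at -0.49 and SCP2 at -0.36. The 11 ribosome recycling partners of ABCE1 and subfamily F had a median of 0.09, with EIF2AK4 at 0.23 and EIF3J at 0.20. Among 19 tested regulators the median was -0.04, with the bile acid receptor NR1H4 at -0.29. TAP1 and TAP2, ABC transporters of antigen peptides that carry other symbols, stood at 0.08 and -0.20, and their 13 partners in class I loading had a median of -0.04, with ERAP1 at -0.18 and HLA-B at -0.13. KCNJ11, a channel subunit that pairs with ABCC8 or ABCC9, stood at -0.52 on at most 1.58 CPM. The hepatic markers had a median log2 fold change of -0.30, below that of the ABC family, and their part in the values of the members was not tested.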

How the data were processed

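Messenger RNA was sequenced from 6 HepG2 libraries, for which the authors deposited a table of raw counts and another of FPKM. The tools named, per the submitters' processing notes, were bcl2fastq, TopHat2 and edgeR, with the GRCh38 build. The annotation, the counting and any use of strand are not given in the labels or notes.

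The test on counts was edgeR's quasi-likelihood test (version 4.0.16, in R 4.3.3) with filterByExpr, TMM factors, robust dispersion, group as the only term and Benjamini-Hochberg adjustment over all tested genes. Calls had an adjusted p under 0.05. Alternatives used RLE or upper quartile scaling, a filter of 1 CPM in 3 libraries or none, unrobust dispersion, DESeq2 1.42.0, limma 3.58.1 (voom, or log2 FPKM with pseudocounts of 1 and 0.1), the replicate number as a block, and each library left out in turn. Length and GC corrections used a loess span of 0.3. The GC correction was added after seeing the data. The procedure was also run on simulated counts with known changes. The outcome is not reported here and is not used as support for the calls. Standard errors came from the estimate and its F statistic.

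Named members were those with an unadjusted p under 0.05, the highest by FPKM in each subfamily and a list of well-known members; of each partner list, the pair with the smallest p. ABCA3 was named after its values were seen, as were other members outside that rule. Some results that the rule would name are not reported here. The members and lists were chosen with earlier results of these data known. Libraries of a group differed by more than sampling noise. Positions came from GENCODE 29, sequences from RefSeq, and figures were drawn with matplotlib 3.10.9.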

Additional observations from a re-analysis of the deposited data

How the results depend on the processing

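ABCA7 passed under 14 of 20 alternatives. It missed in 4 of the fits that left out a library, given above, and in limma on log2 FPKM, at -0.53 (adjusted p = 0.252) with a pseudocount of 1 and -0.74 (adjusted p = 0.205) with 0.1, so the count of ABC transporters was 0 under both pseudocounts and 0 to 1 with a library left out. Genes called among all 14197 tested came to 200, and to 314 in DESeq2. They came to 317 of 26389 genes with no filter, and to 79 (without shCtrl 2) to 343 (without shTCTP 3) with a library left out, where the filter kept slightly more genes. Genes called lower came to 21, and to 71 with no filter, 60 in DESeq2, 46 with the length correction, 38 with the GC correction, 7 and 8 on log2 FPKM with pseudocounts of 1 and 0.1, and 3 to 43 with a library left out. The ABC median log2 fold change, -0.07, was 0.021 on log2 FPKM with a pseudocount of 1 and 0.036 with 0.1, and -0.12 to 0.024 with a library left out. The highest value, 0.024, was without shTCTP 1. The median of all tested genes moved as well. It was -0.0023 in the main fit and ran from -0.022 to 0.091 over the alternatives that kept all 6 libraries. Partner lists held 1 call with no filter (APOM, lower) and 0 to 1 with a library left out (SLC27A2, lower, without shTCTP 3). The TPT1 log2 fold change ran from -0.50 to -0.30 with a library left out. Of 33 members, 20 kept their sign under every alternative run and 13 did not. The subfamily A median was 0.16 over 10 members with no filter, against -0.19 over 6 in the main fit. The members added without a filter had only 1 to 4 reads each. Same-numbered libraries did not deviate together (correlations -0.232, 0.0015 and -0.200). Deviations from a mean of 3 libraries are tied to each other, so this check cannot tell whether same-numbered libraries shared a batch. With the replicate block 130 genes were called, and ABCA7 stood at -0.87 (edgeR adjusted p = 0.0177). Depth limits the 7 members with 1 to 4 reads, for which no difference was detectable.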
